A study of Mus musculus with 6 samples.

Results

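The genes described here encode the protein subunits of the oxidative phosphorylation system, complexes I to IV of the respiratory chain and the ATP synthase, complex V. They were chosen by symbol, with earlier results of these data known, and by at least 30 counts summed over the libraries. Protein-coding genes named Nduf (a, b, c, s or v and a number), Sdha to Sdhd, Uqcr, Cox4 to Cox8 or Atp5 were taken. The protein genes of the mitochondrial genome were taken as well. Of 98 annotated genes with such a name, 95 were listed in at least 1 library and 94 were members, of 23231 genes with a count. There were 81 nuclear and 13 mitochondrial members. Cox6b2, the testis form of a complex IV subunit, was below the minimum. The name rule places Ndufa4 and Ndufa4l2 with complex I and Atp5s and Cox7a2l with complexes V and IV, although Ndufa4 is now regarded as a complex IV subunit, Cox7a2l as a factor that joins complexes and Atp5s as an assembly factor.

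The libraries were poly(A) RNA-Seq of C2C12, mouse myoblasts that can be made to form multinucleate myotubes in low serum. The 3 dCas9-KRAB libraries came from cells with a catalytically dead Cas9 joined to the KRAB repressor domain and no guide to an enhancer, and the 3 dCas9-KRAB-En5 libraries from cells that also carried guides to Myog-En5, an enhancer of the myogenic transcription factor gene Myog. Both groups were transduced with lentivirus, selected with puromycin and kept in 2% horse serum until day 5. It is not stated whether the replicates were separate cultures, so p-values measure the spread between these libraries only. The question of the comparison was what repression of Myog-En5 did to the transcriptome of differentiating cells.

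In the respiratory chain, complexes I and II pass electrons to ubiquinone, complex III passes them on to cytochrome c and complex IV to oxygen, and complex V makes ATP from the proton gradient. Complex II is encoded in the nucleus alone, whereas each of the other complexes combines mitochondrial and nuclear products. Muscle differentiation is known for a rise of mitochondrial content and for a switch of 3 small complex IV subunits to forms of heart and skeletal muscle, encoded by Cox6a2, Cox7a1 and Cox8b, beside the widely expressed Cox6a1, Cox7a2 and Cox8a.

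Libraries held 31831093 to 73988425 counts. The third dCas9-KRAB-En5 library stood apart from the other two of its group. It listed 13991 genes, against 17084 to 19395 in the other 5 libraries, and 25.8% of its counts fell on cytosolic ribosomal protein genes, against 10.7% to 19.3%. Counts of members past the cutoffs are therefore given with and without this library. Myog, the gene of the targeted enhancer, had 1065, 1224 and 1118 TPM (transcripts per 1000000) in dCas9-KRAB cells and 0.379, 0 and 0 TPM in dCas9-KRAB-En5 cells. All 12 myotube markers were called lower by edgeR, beside 4.67% of all genes tested. Their summed level was 17006 to 19820 TPM in dCas9-KRAB and 15.6 to 24.0 TPM in dCas9-KRAB-En5 cells. Macrophage markers were also present in all 6 libraries of this myoblast line. Of 24 such markers, 15 had at least 10 TPM in every library, C1qa had no count in the dCas9-KRAB-En5 libraries and Mrc1 had none in any. The 24 summed to 7119 to 9286 TPM in dCas9-KRAB and 15010 to 23010 TPM in dCas9-KRAB-En5 cells, without overlap. Lyz2 was the largest part of this sum in each library, at 4815, 1896 and 2808 TPM against 13210, 6938 and 11005 TPM. Of the 21 macrophage markers tested, edgeR called 1 higher (Adgre1) and 0 lower. Without overlap, 5 were higher and 2 lower (Fcgr1 and Aif1), and 14 overlapped. Over all genes tested, edgeR called 1.52% higher and 4.67% lower, and 7.76% were higher and 19.7% lower without overlap. The part of these markers in the values below was not tested. Fibroblast markers summed to 57.8 to 137.7 TPM and 13.9 to 25.7 TPM, with Thy1 at 0 in every library, and endothelial markers to at most 0.576 TPM. In bulk RNA, fewer cells of a type and less RNA per cell cannot be told apart.

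The promoters of 2 of the muscle forms, Cox8b and Cox7a1, and of their counterparts are shown because the results on isoforms include these genes. Cox6a2 had no entry in the promoter source, so its promoter was not examined. Each run is the 250 bases before the annotated start in RefSeq (GRCm38.p6), 5′ to 3′ on the gene's strand, with every E-box (CANNTG, the motif of myogenic basic helix-loop-helix factors) in capitals.
Cox8b (chr7:140900447-140900696, minus strand): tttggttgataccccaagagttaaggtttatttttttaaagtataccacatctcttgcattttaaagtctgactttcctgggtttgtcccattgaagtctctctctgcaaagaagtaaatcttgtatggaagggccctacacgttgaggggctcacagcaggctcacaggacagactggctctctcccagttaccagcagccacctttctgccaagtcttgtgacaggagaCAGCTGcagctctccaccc
Cox8a (chr19:7217617-7217866, minus strand): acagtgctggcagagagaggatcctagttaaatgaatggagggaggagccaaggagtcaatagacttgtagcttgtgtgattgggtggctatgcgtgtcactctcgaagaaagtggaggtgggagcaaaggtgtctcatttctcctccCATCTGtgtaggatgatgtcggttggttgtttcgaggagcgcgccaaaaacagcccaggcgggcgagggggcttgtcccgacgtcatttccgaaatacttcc
Cox7a1 (chr7:30183921-30184170, plus strand): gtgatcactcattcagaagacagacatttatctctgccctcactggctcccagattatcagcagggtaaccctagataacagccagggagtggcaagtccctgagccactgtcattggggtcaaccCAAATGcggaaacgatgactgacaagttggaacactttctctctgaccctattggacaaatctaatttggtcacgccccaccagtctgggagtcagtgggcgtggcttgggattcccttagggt
Cox7a2 (chr9:79759854-79760103, minus strand): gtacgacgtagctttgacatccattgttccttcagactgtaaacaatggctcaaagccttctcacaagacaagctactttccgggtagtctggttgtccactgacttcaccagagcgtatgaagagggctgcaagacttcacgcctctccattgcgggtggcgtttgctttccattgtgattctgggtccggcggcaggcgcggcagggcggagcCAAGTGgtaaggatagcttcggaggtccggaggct
Cox8b had 1 E-box, of the form CAGCTG, 19 bases before the start, and the other 3 promoters had 1 E-box each of another form. Cox6a1, whose promoter is not shown, had 0. CAGCTG occurred in 13.0% of all 32851 promoter windows and in 6 of the 69 windows (8.70%) of the 64 nuclear members with an entry. CANNTG, which includes CAGCTG, occurred in 66.2% of all windows and in 60.9% of those of members. The ETS family core CCGGAA on either strand occurred in 12.0% of all windows and 29.0% of those of members. The longer CCGGAAG, which contains this core, occurred in 6.91% and 17.4%. These shares describe letters in a window and not binding.

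Among the nuclear members, the muscle forms Cox6a2 and Cox8b fell in dCas9-KRAB-En5 cells, while the widely expressed forms did not pass the test. The study's cutoffs, used there with DESeq2, were an adjusted p no higher than 0.01 and a log2 fold change of 1 or more in size. At these cutoffs edgeR's quasi-likelihood test called 2 of 94 members lower, Cox6a2 and Cox8b, and 0 higher. Of all 14378 genes tested, it called 4.67% lower and 1.52% higher. DESeq2 at the same cutoffs called 7 members lower and 0 higher, beside 1362 of all 14378 genes lower. At an adjusted p of at most 0.05 in the same edgeR test, 8 were lower and 0 higher, beside 9.60% and 7.43%. The labels do not say what a replicate number shares. Blocking on it, edgeR called 7 lower (6.79% of all genes), and 20 had an adjusted p of at most 0.05 (12.7% of all genes). Without dCas9-KRAB-En5 replicate 3, edgeR called 51 lower, 41 nuclear and 10 mitochondrial, beside 14.0% of the genes tested there. The fold change was negative for 84 members and positive for 10, with a median of -0.69, against 0.08 over all genes tested.

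**Figure D1:**
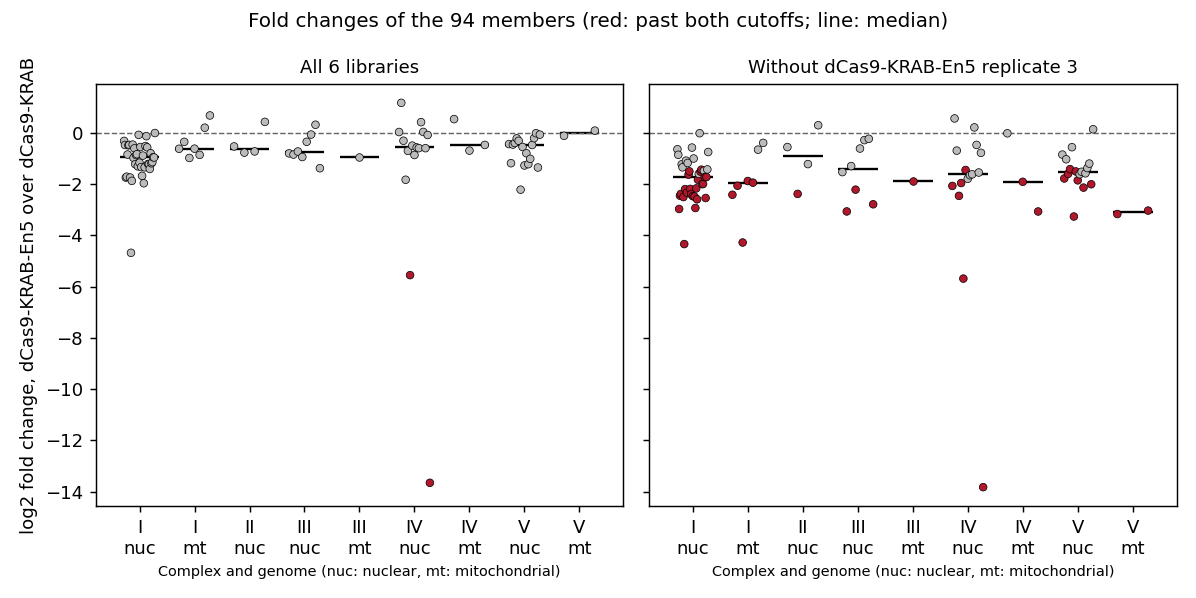
Log2 fold change of each member (vertical axis, dCas9-KRAB-En5 over dCas9-KRAB) by complex and genome, with all 6 libraries on the left and without dCas9-KRAB-En5 replicate 3 on the right. Red points passed both cutoffs, 2 on the left and 51 on the right, black lines are medians, and the lowest point is Cox8b, whose value depends on the prior count because it had no counts in dCas9-KRAB-En5 cells.

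Cox6a2, which encodes the heart and muscle form of subunit VIa, had 198, 237 and 215 TPM in dCas9-KRAB cells and 3.89, 9.45 and 3.08 TPM in dCas9-KRAB-En5 cells. The groups were far apart, and the third dCas9-KRAB-En5 library lay with the other two. The log2 fold change was -5.55 ± 0.52 (SE; edgeR adjusted p = 5.4e-05). It overlaps Itgad on the opposite strand, which had 8 counts in 1 library and 0 in the other 5. Cox6a1, the widely expressed form, had 1453, 2096 and 2109 TPM against 633, 880 and 1532 TPM, and its groups overlapped only through the third dCas9-KRAB-En5 library. Its log2 fold change was -0.70 ± 0.64 (edgeR adjusted p = 0.48), and -1.95 without that library (edgeR adjusted p = 0.0019). Cox6a2 made up 10.5% ± 1.4 of the Cox6a TPM in dCas9-KRAB cells, against 0.625% ± 0.43 with guides to Myog-En5 (SD, n = 3).

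Cox8b, the muscle form of subunit VIII, had 176, 148 and 125 TPM in dCas9-KRAB cells and no count in any dCas9-KRAB-En5 library. A floor of 3 counts in a library puts it at least 360-fold lower (edgeR adjusted p = 2.9e-05 with all libraries). Its counterpart Cox8a had 1057, 1532 and 1729 TPM against 1110, 1511 and 1443 TPM, with overlapping groups. The log2 fold change of Cox8a was -0.08 ± 0.53 (edgeR adjusted p = 0.94), and -0.77 without the third dCas9-KRAB-En5 library.

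Cox7a1, the muscle form of subunit VIIa, stood at a lower level and did not pass the test. It had 21.7, 14.2 and 19.5 TPM against 9.62, 8.71 and 16.0 TPM, and its groups overlapped only through the third dCas9-KRAB-En5 library. Its log2 fold change was -0.56 ± 0.65 (edgeR adjusted p = 0.58), and -1.65 without that library (edgeR adjusted p = 0.021). Cox7a2 had 376, 216 and 258 TPM against 152, 136 and 234 TPM, and overlapped through the same library only. Its log2 fold change was -0.59 ± 0.59 (edgeR adjusted p = 0.52), and -1.61 without that library (edgeR adjusted p = 0.0103). Neither gene passed the cutoffs in either fit. Cox7a1 made up 6.23% ± 0.78 of the pair in dCas9-KRAB cells, against 6.13% ± 0.25 with guides to Myog-En5 (SD, n = 3).

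The log2 ratio of muscle to widely expressed form differed between groups by -4.48 for Cox6a2 over Cox6a1, by -0.01 for Cox7a1 over Cox7a2 and by -10.47 for Cox8b over Cox8a, the last set by the pseudocount of 0.1 TPM. The exact two-sided permutation p was 0.1, 0.9 and 0.1, and 0.15, 0.9 and 0.15 after adjustment over the 3 pairs. With 3 libraries against 3, 0.1 is the smallest p possible, so these ratios could not reach 0.05. The ratios did not overlap between the groups for Cox6a2 and Cox8b.

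**Figure D2:**
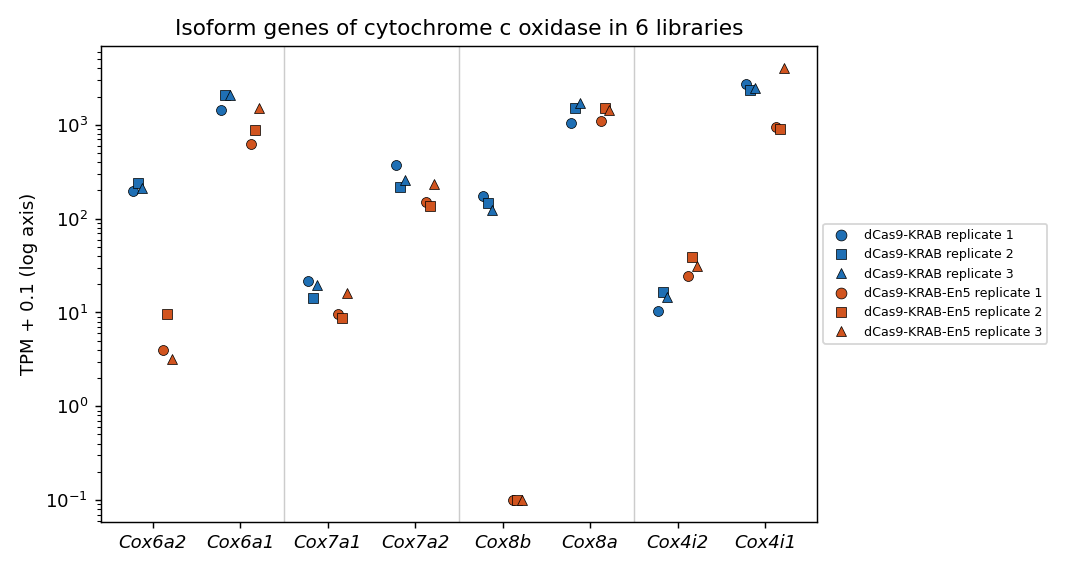
TPM + 0.1 of complex IV isoform genes on a log axis, 1 point per library, with dCas9-KRAB in blue and dCas9-KRAB-En5 in orange and marker shapes for the replicate number. Cox6a2 and Cox8b separate the groups, at 198 to 237 against 3.08 to 9.45 TPM and 125 to 176 against 0 TPM. Cox7a1 overlaps through the third dCas9-KRAB-En5 library only, whereas Cox8a overlaps also without it.

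Cox4i2, the hypoxia-responsive form of subunit IV, was the single member with every dCas9-KRAB-En5 library above every dCas9-KRAB library, beside 7.76% of all genes. It had 10.2, 16.5 and 14.6 TPM against 24.7, 38.8 and 31.2 TPM (log2 fold change 1.18 ± 0.51, edgeR adjusted p = 0.13). Cox4i1, its major form and the most abundant nuclear member of complex IV, had 2725, 2357 and 2487 TPM against 947, 914 and 4089 TPM. The first and second dCas9-KRAB-En5 libraries lay below all dCas9-KRAB libraries and the third above them. The log2 fold change of Cox4i1 was 0.04 ± 0.81 and turned to -2.07 without the third library (edgeR adjusted p = 0.0012), and to -0.96 with the replicate block. Cox5b, a peripheral complex IV subunit named here after its values were seen, had 315, 311 and 337 TPM against 83.1, 99.2 and 92.8 TPM, with no overlap in any library. Its log2 fold change was -1.83 ± 0.51 (edgeR adjusted p = 0.030), and the block brought its adjusted p to 0.0088, past the cutoff. Over complex IV, 2 of 15 nuclear members were called lower with all libraries, beside 4.67% of all genes. Without the third dCas9-KRAB-En5 library 6 were, beside 14.0% of the genes tested there. The summed nuclear level was 8780 ± 264 TPM against 6337 ± 2386 TPM (SD, n = 3).

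Complex I, the NADH dehydrogenase, had negative fold changes for all 37 nuclear members, with a median of -0.96. With all libraries 0 were called at the cutoffs by edgeR, 4 had an edgeR adjusted p of at most 0.05, and TPM did not overlap for 28, beside 19.7% of all genes. Without the third dCas9-KRAB-En5 library 23 were called lower, beside 14.0% of the genes tested there. The summed level was 7622, 6001 and 6565 TPM in dCas9-KRAB and 3158, 3006 and 4321 TPM in dCas9-KRAB-En5 cells, so that even the third library lay below every dCas9-KRAB library. Ndufb9, an accessory subunit named after its values were seen, had 271, 188 and 199 TPM against 59.3, 53.4 and 57.9 TPM (log2 fold change -1.96 ± 0.51, edgeR adjusted p = 0.023). The third library lay with the other two. Ndufa5, another accessory subunit named in the same way, had 58.1, 31.8 and 35.4 TPM against 15.7, 12.6 and 9.53 TPM (log2 fold change -1.87 ± 0.49, edgeR adjusted p = 0.024). Under the replicate block Ndufb9, Ndufa5 and Ndufa11 passed the cutoffs, with edgeR adjusted p of 0.0070, 0.0095 and 0.0096.

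Ndufa4l2, a hypoxia-induced relative of Ndufa4, had 2.15, 2.59 and 1.20 TPM against 0.172, 0.108 and 0 TPM, or at most 4 counts in a dCas9-KRAB-En5 library. Its log2 fold change was -4.68 ± 1.08 (edgeR adjusted p = 0.014). It overlaps Shmt2 on the opposite strand, whose level was 261, 790 and 616 TPM against 69.5, 132 and 104 TPM, and without a stated strand setting reads of the overlap cannot be told apart. Ndufa4 had 239, 118 and 153 TPM against 50.8, 42.6 and 57.1 TPM, without overlap (log2 fold change -1.74 ± 0.57, edgeR adjusted p = 0.055). Ndufs1, Ndufs3, Ndufs7, Ndufs8, Ndufv1 and Ndufv2, core subunits of the electron path, had log2 fold changes of -0.12 to -1.21. Ndufb11, an accessory subunit and the most abundant nuclear member of complex I, had 883, 624 and 681 TPM against 279, 215 and 564 TPM (log2 fold change -0.83 ± 0.67, edgeR adjusted p = 0.42).

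Complex II, succinate dehydrogenase, had the nuclear sum closest to its dCas9-KRAB level, at 91.9% of the dCas9-KRAB mean. Its 4 genes summed to 649, 567 and 609 TPM against 540, 655 and 481 TPM, and the groups overlapped. Sdhb, the iron-sulfur subunit, had 290, 230 and 254 TPM against 72.5, 82.2 and 221 TPM (log2 fold change -0.77 ± 0.71, edgeR adjusted p = 0.48), and was called lower without the third library. Sdhd, a membrane anchor, had 205, 203 and 222 TPM against 369, 437 and 190 TPM (log2 fold change 0.43 ± 0.42, edgeR adjusted p = 0.51), with the first and second dCas9-KRAB-En5 libraries high and the third low. Sdhc, the other anchor, had 78.6, 88.9 and 82.7 TPM against 51.6, 59.5 and 47.3 TPM, without overlap (log2 fold change -0.72 ± 0.46, edgeR adjusted p = 0.30).

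For complex III, the cytochrome bc1 complex, 0 of 8 nuclear members were called by edgeR with all libraries. Without the third dCas9-KRAB-En5 library 3 were called lower, beside 14.0% of the genes tested there. Uqcrq, a small subunit, had 822, 475 and 582 TPM against 148, 136 and 338 TPM, without overlap (log2 fold change -1.38 ± 0.70, edgeR adjusted p = 0.19). Uqcr11, also a small subunit, had 1237, 876 and 978 TPM against 195, 188 and 926 TPM, and the third dCas9-KRAB-En5 library alone reached the dCas9-KRAB range. Uqcrfs1, the Rieske iron-sulfur protein, and Uqcrh, the hinge protein, had log2 fold changes of -0.06 and 0.32. The latter was -0.23 without the third library.

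For complex V, all 17 nuclear members had negative fold changes, with a median of -0.47. With all libraries 0 passed the cutoffs in edgeR. Without the third dCas9-KRAB-En5 library 8 were called lower, beside 14.0% of the genes tested there. The 3 genes of the c subunit of the rotor encode the same mature protein. Atp5g1 had 68.3, 95.1 and 84.2 TPM against 11, 15.7 and 21.9 TPM, without overlap (log2 fold change -2.21 ± 0.60, edgeR adjusted p = 0.027, and 0.0033 with the replicate block). Atp5g2, the most abundant of the 3, had 736, 1110 and 963 TPM against 456, 564 and 759 TPM, and the groups overlapped (log2 fold change -0.55 ± 0.58, edgeR adjusted p = 0.55). Atp5g3 had 295, 355 and 315 TPM against 117, 160 and 132 TPM, without overlap (log2 fold change -1.27 ± 0.49, edgeR adjusted p = 0.096). The share of Atp5g1 in the sum of Atp5g1 and Atp5g2 was 7.90% to 8.49% in dCas9-KRAB cells, against 2.35% to 2.8% with guides to Myog-En5. Atp5b, the catalytic beta subunit, had 1087, 1029 and 1021 TPM against 386, 570 and 463 TPM, with no overlap (log2 fold change -1.18 ± 0.52, edgeR adjusted p = 0.14). Pseudogenes with part of the same sequence also took counts. Gm10175 held 36.7% of the 50-base words of Atp5g2 and Gm10039 6.86% of those of Atp5g1, and Gm11273, annotated as protein-coding, held 11.9% of those of Cox5b, so the levels of these members are uncertain.

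**Figure D3:**
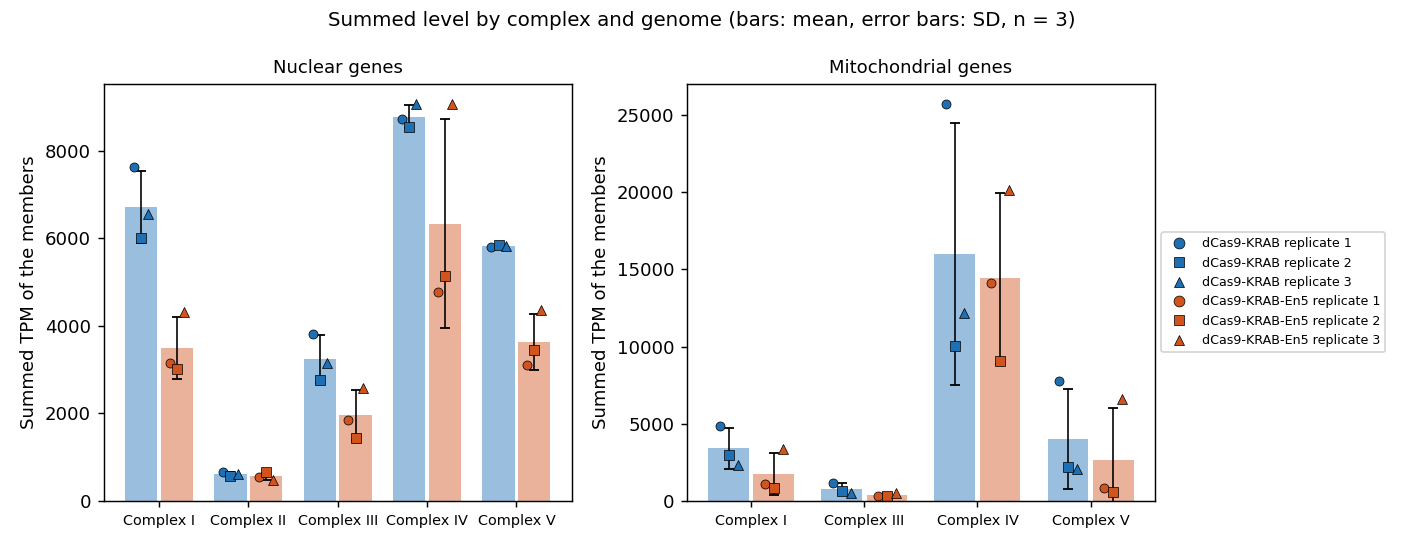
Summed TPM of the members of each complex, nuclear genes on the left and mitochondrial genes on the right, with bars for the mean, error bars for the SD (n = 3) and 1 point per library. Nuclear complex I separates the groups, at 6001 to 7622 against 3006 to 4321 TPM, complex II does not, and the mitochondrial sums are the highest of each group in the first dCas9-KRAB and the third dCas9-KRAB-En5 library.

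The 13 mitochondrial members varied widely within each group. They took 2.46%, 0.873% and 1.04% of the counts in dCas9-KRAB libraries, against 1.13%, 0.682% and 2.15% with guides to Myog-En5, so that replicate 1 of the former and replicate 3 of the latter were high. With all libraries edgeR called 0 of 13, beside 4.67% of all genes lower and 1.52% higher. TPM of the groups overlapped for 12 of these members, and likewise for 10426 of the 14378 genes in the test. The median log2 fold change was -0.46 with all libraries, -1.94 without dCas9-KRAB-En5 replicate 3, 0.09 without dCas9-KRAB-En5 replicate 2, -0.02 without dCas9-KRAB-En5 replicate 1 and -0.06 without dCas9-KRAB replicate 1. With the replicate block it was -1.12, and with limma on log2(TPM + 1) it was -0.95. Its sign and size thus depended on the libraries and the fit.

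Among the ATP synthase subunits, mt-Atp6, the a subunit of the proton channel, had 7509, 2061 and 1999 TPM against 816, 519 and 6304 TPM. The log2 fold change was -0.11 ± 1.06 with all libraries and -3.16 without the third dCas9-KRAB-En5 library. In complex I, mt-Nd3 had 1941, 808 and 837 TPM against 131, 56.8 and 1081 TPM, with the same 2 libraries highest. Its log2 fold change was -0.97 ± 1.07 (edgeR adjusted p = 0.56), and -2.99 with the replicate block (edgeR adjusted p = 0.047). In complex IV, mt-Co3 had 14237, 3717 and 5292 TPM against 2188, 628 and 9598 TPM. By contrast mt-Co1, the catalytic subunit, had 8842, 4154 and 5123 TPM against 11167, 7339 and 8746 TPM, with a log2 fold change of 0.54 ± 0.58 (edgeR adjusted p = 0.55), which was -0.01 without the third library. The mitochondrial cytochrome b of complex III, mt-Cytb, was the only mitochondrial member without overlap, at 1178, 647 and 507 TPM against 322, 340 and 492 TPM (log2 fold change -0.93 ± 0.61, edgeR adjusted p = 0.32).

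The remaining mitochondrial complex I genes mt-Nd1, mt-Nd2, mt-Nd4 and mt-Nd4l had log2 fold changes of -0.62, -0.35, -0.61 and -0.85, mt-Co2 of complex IV -0.69 and mt-Atp8 of complex V 0.09. For mt-Nd5 and mt-Nd6, which overlap on opposite strands, they were 0.21 and 0.68. Annotated nuclear pseudogenes of 7 mitochondrial members shared 28.7% to 99.9% of their 50-base words and also took counts. The copy held 49.9% to 50.3% of the counts of the pair for mt-Co3, 49.6% to 50.1% for mt-Co2 and 50.4% to 53.3% for mt-Nd4l. It held 55.6% to 57.3% for mt-Atp6, 51.4% to 65.2% for mt-Nd3, 30.5% to 33.2% for mt-Nd4 and 19.2% to 27.5% for mt-Co1. Levels of these 7 genes are therefore uncertain. Adding the copies, a step chosen after the data were seen, changed the log2 fold change of mt-Nd3 from -0.97 to -0.85 and left that of mt-Atp6 at -0.11.

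**Figure D4:**
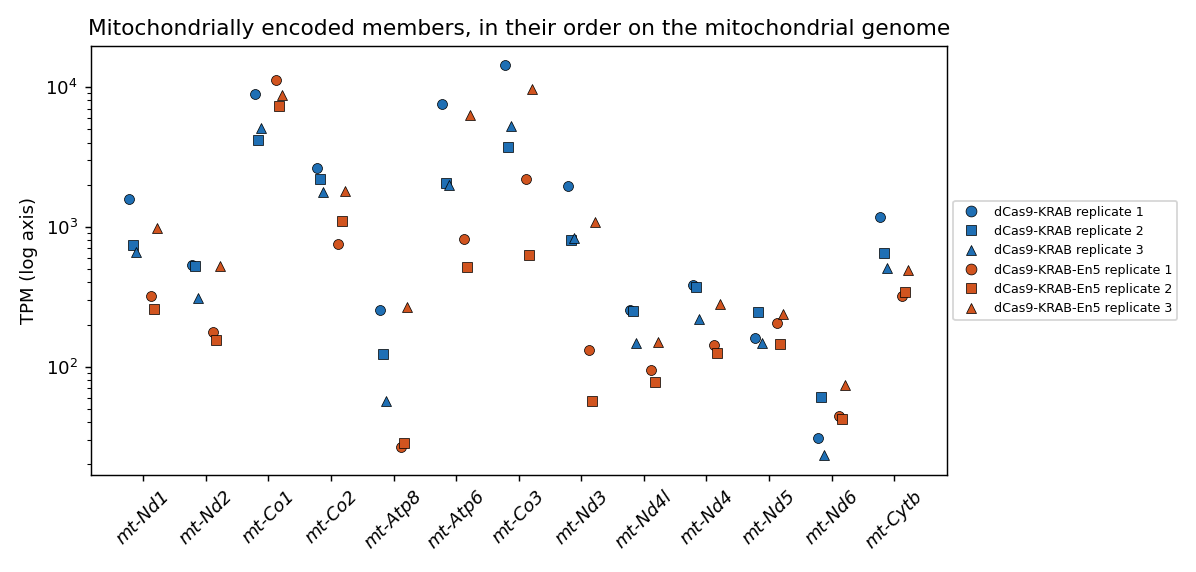
TPM of the 13 mitochondrial members on a log axis in their order on the mitochondrial genome, 1 point per library, coloured by group. The first dCas9-KRAB and the third dCas9-KRAB-En5 library are the highest of their groups for mt-Atp6, mt-Co3 and mt-Nd3, at 7509 and 6304, 14237 and 9598, and 1941 and 1081 TPM.

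Nuclear and mitochondrial members did not shift in the third dCas9-KRAB-En5 library as other genes did. Compared with the mean of the other two libraries of its group, the median log2 difference in that library was 0.15 over nuclear members and 1.05 over mitochondrial members, against -1.31 over all genes tested. For cytosolic ribosomal protein genes it was 0.18. Nuclear members were short, with a median exon length of 1569 bases against 3914 over all genes tested, and the part of length in this shift was not tested. Over all genes the Spearman correlation of length with the shift was -0.39, and over the nuclear members -0.09, where genes of 1 library share its depth.

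Genes that serve the complexes were compared from lists. Over all genes, edgeR called 4.67% lower and 1.52% higher with all libraries. It called 6.79% lower with the replicate block and 14.0% lower without the third dCas9-KRAB-En5 library. Assembly factors had 0 of 44 called in either direction by edgeR with all libraries, 1 lower with the replicate block and 7 lower without the third dCas9-KRAB-En5 library. Uqcc1, a complex III assembly factor, had 21.7, 18.9 and 18.9 TPM against 4.83, 7.48 and 4.17 TPM (log2 fold change -2.00 ± 0.44, edgeR adjusted p = 0.011, and 0.0054 with the block). Among 5 electron carriers and subunits outside the name rule, 0 were called by edgeR with all libraries and 2 were lower without the third library. Etfb, a subunit of the electron transfer flavoprotein, had the smallest edgeR adjusted p of these, 0.13.

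Mitochondrial ribosomal proteins, which translate the mitochondrial members, had 0 of 77 called by edgeR with all libraries. With the block 2 were lower and without the third library 31, beside 6.79% and 14.0% of all genes. Mrps28 had 95.5, 82.4 and 98.2 TPM against 22.4, 27.7 and 27.3 TPM, without overlap (log2 fold change -1.84 ± 0.50, edgeR adjusted p = 0.027, and 0.0070 with the block). The 15 tested genes of mitochondrial DNA expression and biogenesis had a median log2 fold change of 0.20, and edgeR called 0 with all libraries and 0 lower without the third. Tfam, which packages mitochondrial DNA, had a log2 fold change of -0.81 ± 0.52 (edgeR adjusted p = 0.30), and Ppargc1b, a coactivator of mitochondrial genes, one of 1.46 ± 0.55 (edgeR adjusted p = 0.088). Of the tricarboxylic acid cycle genes 0 of 16, and of the fatty acid oxidation genes 0 of 8, were called by edgeR with all libraries. Without the third library 3 and 1 were lower, near the 14.0% of all genes. Suclg1, the alpha subunit of succinyl-CoA ligase, had 33.1, 28.5 and 30.0 TPM against 14.1, 19.8 and 7.75 TPM (log2 fold change -1.38 ± 0.41, edgeR adjusted p = 0.039).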

How the data were processed

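Poly(A) RNA of 6 C2C12 libraries was sequenced in pairs. Per the labels and the study's methods, the authors aligned reads to GRCm38 with HISAT2 2.2.1, used featureCounts to count reads per gene, and deposited the raw counts beside TPM (counts per exon length, scaled per library). The annotation release and strand setting are not given in the sources used here. Genes without a count are not listed and were set to 0. Of 23231 genes, 23155 matched a GENCODE symbol.

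Counts were tested with edgeR 4.0.16 in R 4.3.3 (TMM, filterByExpr with minimum count 10 and total 15, quasi-likelihood, group only, Benjamini-Hochberg over 14378 genes). SEs were derived from the F statistic. Scripts were tested on simulated data. A first criterion, that most genes simulated with a change above the fold cutoff pass both cutoffs, failed. Few such genes passed at the spread fitted to these libraries, which is low power. It was replaced by checks of the estimated fold changes, of unchanged genes and of recovery at a smaller spread, which passed. Alternatives were other scalings and filters, DESeq2 1.42.0, limma 3.58.1 on log2 TPM with a pseudocount of 1 or 0.1, leaving out each library, a replicate block and, added after the data were seen, the counts of pseudogene copies. Same-numbered libraries deviated together (correlations 0.262, 0.214 and 0.290), so the numbers were taken to pair the libraries. The labels do not say what a number shares, and the pairing rests on these same data. Genes past the cutoffs only under the replicate block depend on that assumption. Named genes were isoform genes, mitochondrial members, called members, and per complex or list the extremes of level or adjusted p. Other genes given values, among them Cox5b, Ndufb9, Ndufa5, Ndufa11, Sdhb, Uqcrfs1, Atp5b and core subunits of complex I, were named after their values were seen. Members, lists and promoter motifs were chosen with earlier results of these data known. A gene that did not pass is not shown to be unchanged, since SEs of the members' log2 fold changes ran from 0.42 to 1.08. The floor of 3 counts covers counting error only, whereas SEs and SDs include the spread between libraries.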

Additional observations from a re-analysis of the deposited data

How the results depend on the processing

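The count of members called lower, 2 by edgeR with all libraries, was 6 with no low-count filter, 1 with at least 10 counts in every library (Cox8b and Ndufa4l2 were no longer tested), 7 with DESeq2, 6 with limma on log2(TPM + 1), 7 on log2(TPM + 0.1), 7 with the replicate block and 8 at an adjusted p of at most 0.05 with no fold cutoff. Leaving out 1 library gave 2 to 51, the 51 without dCas9-KRAB-En5 replicate 3 and 2 in each other case. It was 2 under the other scalings and with the copies added. The share of all genes called lower moved too, from 4.67% by edgeR with all libraries. It was 6.79% with the block, 14.0% without dCas9-KRAB-En5 replicate 3 and 9.60% at an adjusted p of at most 0.05. DESeq2 called 1362 of 14378 genes lower. Shares of all genes under limma and the other filters are not given here. The cause of these differences was not tested. No member was called higher under any of these settings, by edgeR, DESeq2 or limma. The median log2 fold change was -0.44 to -1.59 for nuclear and -1.94 to 0.09 for mitochondrial members over the libraries left out, and -1.12 for the latter with the block and -0.95 with limma.

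The Cox7a1 to Cox7a2 log2 ratio difference of -0.01 was 0.029 with log2(TPM + 1), 0.0078 with log2(CPM + 0.1), and -0.11 to 0.084 over the libraries left out. Its pairing by replicate number left the difference at -0.01, and the paired exact p was 0.25, 0.75 and 0.25 for the 3 pairs of isoforms. With 3 pairs of libraries, 0.25 is the smallest p that this two-sided test allows. Several single log2 fold changes turned sign. Cox4i1 was -0.26 with total counts only, -0.72 with either limma fit and -0.96 with the block, and mt-Atp8 was -0.31, -1.02, -1.04 and -1.66. Cox7b was -0.033 with upper-quartile factors, -0.027 with total counts only and -0.010 with at least 10 counts in every library, and mt-Nd5 was -0.043 with the block. Over the libraries left out the range was -2.07 to 0.51 for Cox4i1, -0.47 to 0.54 for Cox7b, -0.77 to 0.19 for Cox8a, -0.23 to 0.68 for Uqcrh, -3.16 to 0.89 for mt-Atp6, -3.03 to 0.88 for mt-Atp8, -0.011 to 0.93 for mt-Co1, -3.07 to 0.37 for mt-Co3, -2.06 to 0.10 for mt-Nd2, -0.65 to 0.57 for mt-Nd5 and -0.39 to 1.05 for mt-Nd6. The calls of Cox6a2, Cox8b and Myog held under every setting that tested them. Those of the markers Ttn, Des, Adgre1 and Col1a1 did not. Their adjusted p reached 0.30, 0.011, 0.059 and 0.029 over the edgeR, DESeq2 and limma settings. Depth limited members with few counts, such as Ndufa4l2 with at most 4 in a dCas9-KRAB-En5 library.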
